A study of Mus musculus with 16 samples.

Results

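N-terminal acetyltransferases (NATs) transfer an acetyl group from acetyl-CoA onto the first residue of proteins, mostly while the chain is still leaving the ribosome. Each NAT complex reads a different class of N-termini, and most pair a catalytic subunit with an auxiliary subunit that anchors it to the ribosome. N-terminal acetylation is known to affect protein folding, stability and complex assembly, and acetylation of caspase-2 by the NatA complex has been linked to its activation by the adaptor protein Cradd. Here, the mRNAs of 10 NAT subunits were followed in B16F10 tumors: Naa10, Naa15, Naa16 and Naa50 of NatA and its NatE extension, Naa20 and Naa25 of NatB, Naa30 and Naa35 of NatC, and the single-subunit enzymes Naa40 (NatD) and Naa60 (NatF). They were taken by gene symbol from the 45777 genes listed, and all 10 had a count above 0 in all 16 tumors, which placed them among the 16209 genes tested.

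B16F10 is a melanoma cell line of C57BL/6 origin, and the tumors were subcutaneous allografts of this one line in C57BL/6J mice (lean) or in ob/ob mice, which lack leptin and become obese (obese). The mice were 6 weeks old when the cells were injected. Tumors labelled pre-therapy were compared with tumors labelled ETS, from mice given the topoisomerase II poison etoposide (ETS) at 20 mg/kg by 5 intraperitoneal injections. Each of the 4 groups held 4 tumors. Libraries of mRNA were made from the RNA of tumor tissue with a stranded kit, so that the levels are those of mixed cells, in which fewer cells of a type and less RNA per cell cannot be told apart.

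The deposited read counts summed to between 47199949 and 61655287 per tumor, and the 10 subunits had between 258 counts (Naa16) and 17195 counts (Naa50) in a tumor. Levels are given as CPM, counts divided by library size after TMM scaling, which aligns tumors on the bulk of their genes, and genes were called at a Benjamini-Hochberg adjusted p under 0.05 over all tested genes in edgeR's quasi-likelihood test. The 8 melanocyte markers checked, among them Mlana, Pmel and Dct, were counted in every tumor. They summed to 19022 to 24147 CPM in lean tumors before therapy and 24228 to 27992 CPM after ETS, and to 11621 to 15867 CPM and 11264 to 26648 CPM in obese tumors. Between hosts before therapy, where these ranges did not overlap, 4 of the 8 were lower in obese tumors, and after ETS 2 were higher in lean and 3 in obese tumors than before. Macrophage, fibroblast and endothelial markers moved in opposite directions in the hosts after ETS. Of all tested genes, 22.8% were called as lower in lean tumors and 21.2% as higher in obese tumors. Of 8 macrophage markers, 5 were lower after ETS in lean tumors (summed level 332 to 1097 CPM before, 46.4 to 348 after) and 5 were higher in obese tumors (39.9 to 225 before, 288 to 902 after). Of 6 fibroblast markers, 3 were lower in lean tumors (514 to 2175 CPM, then 88.7 to 585) and 6 higher in obese tumors (85.9 to 592, then 591 to 5646), and of 5 endothelial markers, 1 was lower in lean tumors (89.1 to 114 CPM, then 59.4 to 84.8) and 3 higher in obese tumors (41.1 to 76.5, then 77.3 to 222). The 6 T cell markers summed to 17.9 to 33.6 CPM in lean tumors before therapy and to at most 1.62 CPM in any other group, where each of Cd3d, Cd3e, Cd3g and Cd8a was at 0 in at least 1 tumor. Adipocyte markers summed to 10.2 to 25.2 CPM in lean tumors before therapy and 7.66 to 17.5 after ETS, and to 13.5 to 99.9 and 66.1 to 257 CPM in obese tumors. Skeletal muscle markers summed to 1.39 to 165 CPM and 4.03 to 239 CPM in lean tumors, and to 3.14 to 4.42 and 3.43 to 306 CPM in obese tumors. The 13 mRNAs of the mitochondrial genome took 4.15% to 6.04% of all counts in lean tumors before therapy and 9.75% to 14.4% after ETS, against 4.02% to 5.52% and 4.63% to 11.6% in obese tumors. The part of these shifts in the results on the NAT subunits was not tested.

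To compare genes with each other, the deposited TPM values were used, which correct for transcript length as well as for library size. In lean tumors before therapy, Naa50 (mean 103 TPM ± 4.0, SD, n = 4), Naa20 (92.6 ± 8.66) and Naa10 (88.7 ± 4.41) were the most abundant subunits. The range of Naa20 overlapped those of the other two, whereas Naa50 (96.9 to 106 TPM) lay above Naa10 (82.9 to 93.0 TPM). Naa15 (49.4 ± 5.47) and Naa60 (42.7 ± 0.721) followed, with overlapping ranges, and then Naa35 (34.1 ± 2.90), Naa25 (30.5 ± 3.49) and Naa40 (29.6 ± 4.14), which did not differ beyond their spread. Naa30 (15 ± 1.47) and Naa16 (6.73 ± 1.78) were the scarcest, and each stood apart from its neighbours. Obese tumors before therapy had the same 3 subunits on top, Naa50 at 104 TPM ± 12.1, Naa10 at 99.0 ± 1.38 and Naa20 at 96.2 ± 19.0, and the same 2 at the bottom, Naa30 at 12.6 ± 0.830 and Naa16 at 9.61 ± 1.74. After ETS, Naa15 moved from the fourth place to the sixth in lean tumors (24.5 TPM ± 5.86) and to the seventh in obese tumors (27.9 ± 7.75). Its range then overlapped those of its neighbours in the order, Naa35 and Naa40 in lean and Naa40 and Naa25 in obese tumors. The summed TPM of the 10 subunits was 457 to 514 in lean tumors before therapy, 316 to 361 after ETS, 460 to 548 in obese tumors before therapy and 314 to 419 after ETS.

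**Figure D1:**
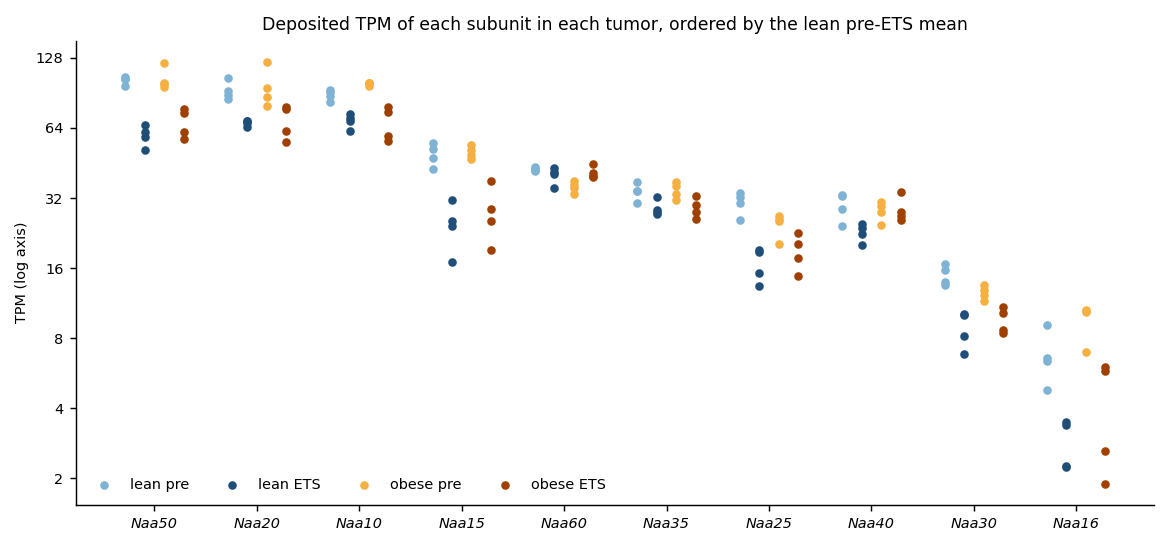
Deposited TPM of each NAT subunit (x axis) in each of the 16 tumors (points, colored by group) on a log axis, ordered by the mean in lean tumors before therapy. Naa50, Naa20 and Naa10 lie on top in all groups, Naa30 and Naa16 lie lowest, and the points of Naa15 after ETS (17.0 to 37.9 TPM) lie below those before therapy (42.7 to 55.4 TPM).

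The subunit genes lie on 8 chromosomes, Naa16 and Naa30 sharing chromosome 14 and Naa50 and Naa60 sharing chromosome 16. Naa10 (X:73916870-73921944, minus strand, GRCm38.p6, the mm10 build of the files) overlaps exons of Arhgap4 on the same strand. Exons of Naa25 overlap Erp29, those of Naa35 overlap Golm1, and those of Naa60 overlap Zfp597 and 1700037C18Rik, all on the opposite strand, and Naa60 also shares exonic sequence with Gm20695 on its own strand. Whether the counting used the strand is not given in the sources used here, and reads of these neighbours could enter the counts of Naa10, Naa25, Naa35 and Naa60. Naa10 and Naa11, and likewise Naa15 and Naa16, are paralogs whose reads could be split between copies.

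The 250 bases before the start given in RefSeq's promoter table (GRCm38.p6) were searched in the 9 subunits with an entry there. This start can differ from the outer end of the gene. The windows of Naa20 (chr2:145902991-145903240) and Naa60 (chr16:3884369-3884618) lay inside their genes, which begin at 145901539 and 3872496. Those of Naa16 and Naa35 ran partly into the gene. The window of Naa15 lay wholly within annotated Naa15 exons, so its matches are in exon sequence. Letters that match the binding motif of NRF1 (GCGC, any base, then TGCGC, on either strand), a factor known for driving mitochondrial and housekeeping genes, were present in 4 of the 9, Naa15, Naa16, Naa40 and Naa50, against 3.86% of all 27025 promoter windows of this length. These 4 windows held 63.2% to 69.6% G and C and 18 to 26 CpG (C followed by G). The medians over all windows were 52.0% and 6.00. The NRF1 letters are themselves rich in G and C, and their share in windows of like composition was not tested. The GC box (GGGCGG) was present in 32.9% of all windows, the CCAAT box (CCAAT) in 34.5%, the E-box (CACGTG) in 6.05%, the TATA box (TATAAA) in 13.0% and the motif of the ETS family of transcription factors, which shares only its abbreviation with the drug (CCGGAAG), in 7.05%, each searched on both strands. The GC box was found in all of the 9 subunits but Naa15 and Naa20, and the CCAAT box in Naa10, Naa15 and Naa60. None of the 9 had an E-box or a TATA box, and the ETS family letters were found in Naa20 and Naa30. A match of letters is a description of the window and not a binding site. Shown here are the stretches directly upstream of the start, free of annotated exons and printed on the strand of the gene, of Naa50, which fell in both hosts, of Naa40, which has the same NRF1 letters and was not called by edgeR in either host, and of Naa10, which has none and whose response differed between hosts. Capitals mark the GC box and the NRF1 letters in Naa50 (chr16:44139706-44139790, plus strand) and Naa40 (chr19:7241223-7241472, minus strand), and the CCAAT box in either orientation in Naa10 (chrX:73921945-73922120, minus strand).
Naa50: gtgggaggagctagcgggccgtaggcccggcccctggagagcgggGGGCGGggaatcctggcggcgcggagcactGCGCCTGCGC
Naa40: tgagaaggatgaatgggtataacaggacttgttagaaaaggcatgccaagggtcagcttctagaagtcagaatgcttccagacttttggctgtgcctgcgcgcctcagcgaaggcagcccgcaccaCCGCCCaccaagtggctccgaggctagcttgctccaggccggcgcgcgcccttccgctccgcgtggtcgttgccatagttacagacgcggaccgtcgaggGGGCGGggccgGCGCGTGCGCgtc
Naa10: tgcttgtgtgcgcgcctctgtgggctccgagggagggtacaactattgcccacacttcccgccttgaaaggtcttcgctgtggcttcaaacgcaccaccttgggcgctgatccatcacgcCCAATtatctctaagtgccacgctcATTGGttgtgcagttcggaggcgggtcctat

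The first question was how the NAT subunits responded to ETS in each host. In lean tumors, 5 of 10 subunits fell and 1 rose, where 43.8% of all tested genes were called (21.0% as higher and 22.8% as lower). In obese tumors, 7 of 10 fell and 1 rose, against 40.2% of all genes called (21.2% higher and 19.0% lower). The 8 calls in obese tumors became 4 without replicate 1 after ETS and 5 when only these groups were fitted, and the 6 in lean tumors became 4 without replicate 3 before therapy or replicate 1 after ETS. Naa15, Naa16, Naa25, Naa30 and Naa50 fell in both hosts and Naa60 rose in both. The 4 tumors before and the 4 tumors after ETS did not overlap in 7 of 10 subunits in lean tumors (41.2% of all genes) and in 6 of 10 in obese tumors (34.2% of all genes). The median over the 10 subunits was -0.26 in lean tumors, where that of all tested genes was -0.015, and -0.36 in obese tumors, where it was 0.0066. The split of calls in lean tumors depended on scaling: of all called genes 48.0% were higher with TMM, 29.7% with library size only, 15.7% with log2(TPM + 1) and 74.7% with the centred TPM, and the subunits numbered 0 higher and 5 lower, 0 and 9, and 2 and 5 in these alternatives. With log2(TPM + 1) the median of all genes itself shifted by -0.28 in lean and by -0.052 in obese tumors.

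**Figure D2:**
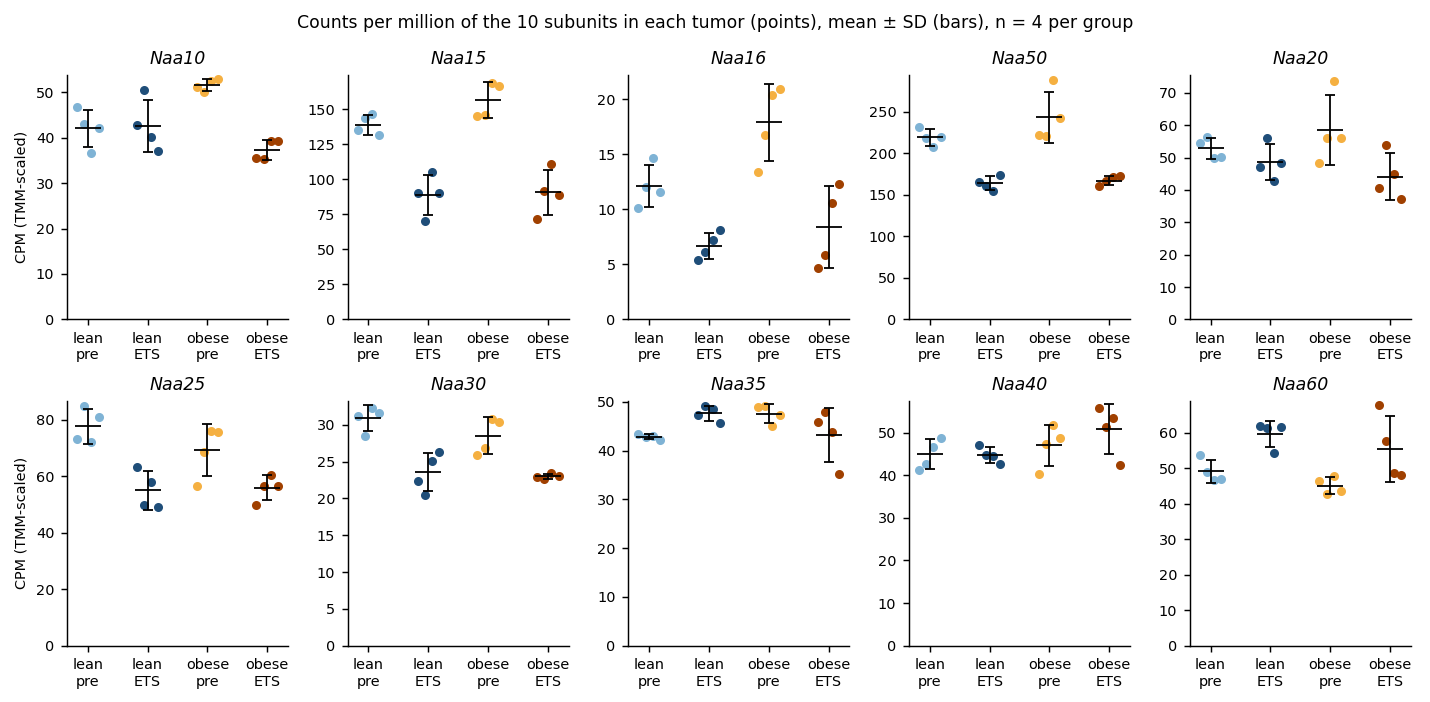
TMM-scaled CPM (y axis, from 0) of each NAT subunit in each tumor (points) by group, with the mean and SD of 4 tumors (bars). Naa15, Naa16, Naa30 and Naa50 lie lower after ETS in both hosts with no overlap, whereas Naa10 overlaps in lean tumors and drops in obese tumors on this scale (from 50.0 to 53.0 CPM to 35.4 to 39.3 CPM), although in TPM it fell in both hosts.

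NatA acetylates the N-termini exposed when the first methionine is removed. Naa15, its main auxiliary subunit, was at 135, 144, 147 and 132 CPM in lean tumors before therapy and at 90.4, 70.0, 105 and 90.2 CPM after ETS. In obese tumors it was at 145, 146, 169 and 167 CPM before and at 71.9, 91.5, 111 and 88.6 CPM after. The groups did not overlap in either host, and replicate 2 was the lowest of the treated lean tumors and replicate 1 of the treated obese tumors. Naa15 fell by 0.65 on the log2 scale in lean tumors (SE 0.13, edgeR adjusted p = 0.00106) and by 0.79 in obese tumors (SE 0.13, adjusted p = 0.000345). It remained called in all alternatives tried, with log2 fold changes between -1.03 and -0.52 in lean tumors and between -0.90 and -0.67 in obese tumors.

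Naa16, the paralog of Naa15 that can take its place in NatA, was at 10.1, 12.0, 14.7 and 11.6 CPM in lean tumors before therapy and at 5.42, 6.11, 7.20 and 8.09 CPM after ETS. The obese tumors held 13.4, 16.8, 20.4 and 20.9 CPM before and 4.68, 5.89, 10.6 and 12.3 CPM after. No treated tumor reached an untreated tumor of its host, but the treated obese tumors were spread more widely than the others. Naa16 fell by 0.85 on the log2 scale in lean tumors (SE 0.26, edgeR adjusted p = 0.0165) and by 1.09 in obese tumors (SE 0.26, adjusted p = 0.00474). Without replicate 3 of the lean tumors before therapy, or replicate 1 of the lean tumors after ETS, its adjusted p in lean tumors was 0.0514 and 0.0510.

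Naa50, the catalytic subunit of NatE that binds to NatA, had the highest mean TPM of the subunits before therapy. It was at 232, 218, 208 and 220 CPM in lean tumors before therapy and at 165, 161, 154 and 174 CPM after ETS. The values in obese tumors were 222, 221, 288 and 242 CPM before and 160, 167, 171 and 172 CPM after. The treated tumors of both hosts fell within 154 to 174 CPM, below all untreated tumors. Naa50 fell by 0.42 on the log2 scale in lean tumors (SE 0.084, edgeR adjusted p = 0.00112) and by 0.54 in obese tumors (SE 0.084, adjusted p = 0.000239), and it remained called in all alternatives tried.

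Naa10, the catalytic subunit of NatA, followed another pattern. It was at 46.7, 43.1, 36.7 and 42.1 CPM in lean tumors before therapy and at 42.8, 50.6, 40.1 and 37.2 CPM after ETS, so that the groups overlapped. Obese tumors held 51.2, 50.0, 52.5 and 53.0 CPM before and 35.5, 35.4, 39.2 and 39.3 CPM after, with a gap between the groups. Its log2 fold change was 0.018 in lean tumors (SE 0.095, edgeR adjusted p = 0.888), and in obese tumors it fell by 0.47 (SE 0.095, adjusted p = 0.00159). The value in lean tumors, but not that in obese tumors, depended on the scaling, as given with the comparison of the hosts.

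NatB acetylates N-termini that keep a methionine followed by an acidic residue or its amide. Its auxiliary subunit Naa25 was at 73.2, 84.8, 71.9 and 81.0 CPM in lean tumors before therapy and at 63.2, 49.6, 57.9 and 49.2 CPM after ETS, with no overlap. In the obese host the values were 56.6, 68.5, 75.9 and 75.7 CPM before and 49.7, 56.6, 60.3 and 56.4 CPM after, where the lowest untreated tumor lay within the treated range. Naa25 fell by 0.50 on the log2 scale in lean tumors (SE 0.11, edgeR adjusted p = 0.00210) and by 0.31 in obese tumors (SE 0.11, adjusted p = 0.0328). In obese tumors this call was lost when replicates 2, 3 or 4 before therapy or replicates 1, 2 or 4 after ETS were left out (adjusted p = 0.0523, 0.0949, 0.0939, 0.129, 0.0553 and 0.0592). It was also lost with no filter, with log2(TPM + 1) and with only the groups compared (adjusted p = 0.0546, 0.0514 and 0.0573). Naa20, the catalytic subunit, was at 50.0 to 56.5 CPM in lean tumors before therapy and at 42.7 to 56.0 CPM after ETS, with a log2 fold change of -0.12 (SE 0.13, adjusted p = 0.467) that turned to -0.45 with log2(TPM + 1) (adjusted p = 0.00880). In obese tumors Naa20 was at 48.3, 56.1, 73.8 and 56.1 CPM before and at 40.5, 53.9, 44.9 and 37.1 CPM after, and it fell by 0.41 (SE 0.13, adjusted p = 0.0234). The groups overlapped, and the call was lost without replicate 3 before therapy, the highest tumor, or without replicates 1 or 4 after ETS (adjusted p = 0.0934, 0.0672 and 0.0594), and with only the groups compared (0.0666).

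NatC acetylates N-termini that keep a methionine followed by a hydrophobic residue. Its catalytic subunit Naa30 was at 31.2, 28.4, 32.3 and 31.6 CPM in lean tumors before therapy and at 22.4, 20.5, 25.1 and 26.3 CPM after ETS. In obese tumors it was at 25.9, 26.9, 30.8 and 30.4 CPM before and at 22.9, 22.6, 23.4 and 23.1 CPM after. The groups did not overlap in either host, and the treated obese tumors were nearly level (SD 0.341, n = 4). Naa30 fell by 0.39 on the log2 scale in lean tumors (SE 0.090, edgeR adjusted p = 0.00305) and by 0.31 in obese tumors (SE 0.090, adjusted p = 0.0136, and 0.0527 without replicate 1 after ETS). Naa35, the auxiliary subunit of the same complex, was at 42.3 to 43.5 CPM in lean tumors before therapy and at 45.7 to 49.2 CPM after ETS, which did not overlap, and its log2 fold change of 0.15 did not pass the threshold (SE 0.083, adjusted p = 0.15). With log2(TPM + 1) this value was -0.23 (adjusted p = 0.0470), and with the centred TPM it was 0.26 (adjusted p = 0.0343). In obese tumors Naa35 was at 45.0 to 49.2 CPM before and 35.2 to 48.0 CPM after ETS (log2 fold change -0.14, SE 0.083, adjusted p = 0.192, and -0.22 with adjusted p = 0.0409 with library size only).

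Naa40, the NatD enzyme that acetylates histones H2A and H4, was at 41.2 to 48.8 CPM in lean tumors before therapy and at 42.7 to 47.2 CPM after ETS, and at 40.3 to 51.7 and 42.5 to 55.9 CPM in obese tumors. The ranges overlapped in both hosts, and the log2 fold changes were -0.0017 (SE 0.10, edgeR adjusted p = 0.990) and 0.11 (SE 0.10, adjusted p = 0.373). With log2(TPM + 1) the lean value was -0.36 (adjusted p = 0.0169), against the shift of -0.28 in all genes. Naa60, the NatF enzyme, which sits on the Golgi and acts on membrane proteins, was the only subunit called as higher. It was at 53.7, 49.0, 46.7 and 47 CPM in lean tumors before therapy and at 61.9, 61.2, 54.3 and 61.5 CPM after ETS. Its values in obese tumors were 46.4, 42.8, 47.7 and 43.6 CPM before and 67.7, 57.5, 48.6 and 48.0 CPM after. All treated tumors lay above all untreated tumors of their host, by a narrow margin between 53.7 and 54.3 CPM in lean and between 47.7 and 48.0 CPM in obese tumors. Naa60 rose by 0.28 on the log2 scale in lean tumors (SE 0.10, edgeR adjusted p = 0.0320) and by 0.30 in obese tumors (SE 0.10, adjusted p = 0.0284). In lean tumors the rise was lost without replicates 2, 3 or 4 before therapy or replicates 1, 2 or 4 after ETS (adjusted p = 0.0646, 0.0825, 0.0798, 0.0831, 0.0629 and 0.0664), with no filter (0.0532) and with library size only, where it was 0.10 (adjusted p = 0.303). With log2(TPM + 1) the value turned to -0.10 (adjusted p = 0.254), above the shift of all genes by 0.18. In obese tumors it was lost without replicates 2 or 4 before therapy or replicates 1 or 2 after ETS (adjusted p = 0.0693, 0.0718, 0.0813 and 0.0643), with no filter (0.0557) and with only the groups compared (0.0812), and the log2(TPM + 1) value was 0.20 (adjusted p = 0.0367).

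**Figure D3:**
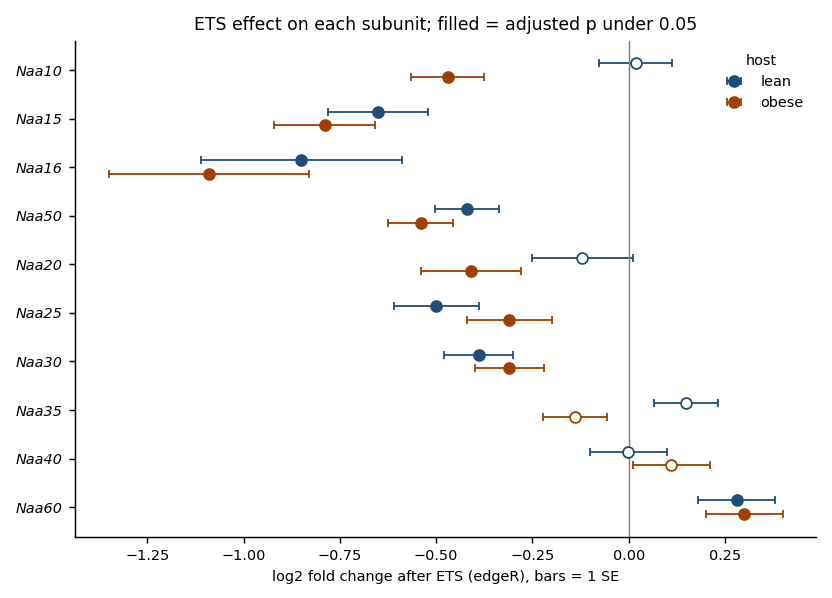
Log2 fold change after ETS (x axis, edgeR, bars are 1 SE) of each NAT subunit in lean (blue) and obese (brown) tumors, with filled points for adjusted p under 0.05. The points of Naa15, Naa16, Naa25, Naa30 and Naa50 lie left of 0 in both hosts, those of Naa60 right of 0, and those of Naa10 apart at 0.018 and -0.47 on this scale, although in TPM Naa10 and Naa60 had lean values of -0.37 and -0.10.

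Whether the response to ETS differed between hosts was tested by the difference of the log2 fold changes, lean minus obese. One subunit passed, Naa10 (0.49, SE 0.13, edgeR adjusted p = 0.0219), where 16.4% of all genes were called. Of all calls 38.7% were higher, against 9.24% with log2(TPM + 1) and 75.0% with the centred TPM. The call for Naa10 was kept without each of the 16 tumors in turn, with adjusted p between 0.0135 and 0.050 and values between 0.38 and 0.55. It was not kept with library size only (0.37, adjusted p = 0.0774) or with log2(TPM + 1) (0.19, adjusted p = 0.383), and on the latter scale the median of all genes was -0.16. In TPM, Naa10 was at 87.8, 93.0, 82.9 and 91.0 in lean tumors before therapy and at 68.3, 73.4, 70.5 and 61.9 after ETS, and at 99.5, 100, 99.6 and 97.0, then 56.3, 59.1, 79.0 and 75.2 in obese tumors. On this scale Naa10 fell in both hosts, by 0.37 in lean tumors (adjusted p = 0.00523 with limma) and by 0.56 in obese tumors (adjusted p = 0.000689), and relative to the median shift of all genes the values were -0.094 and -0.51. The share of the mitochondrial mRNAs in all counts, given above, was higher after ETS in lean tumors. Its part in the difference between the scalings was not tested. For Naa35 the difference was 0.29 (SE 0.12, adjusted p = 0.105, and 0.42 with adjusted p = 0.0366 with the centred TPM), and for the other 8 subunits it ranged from -0.19 (Naa25) to 0.29 (Naa20), with adjusted p of at least 0.328. Naa20 was thus called in obese tumors and not in lean tumors without a difference between hosts that passed the test.

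**Figure D4:**
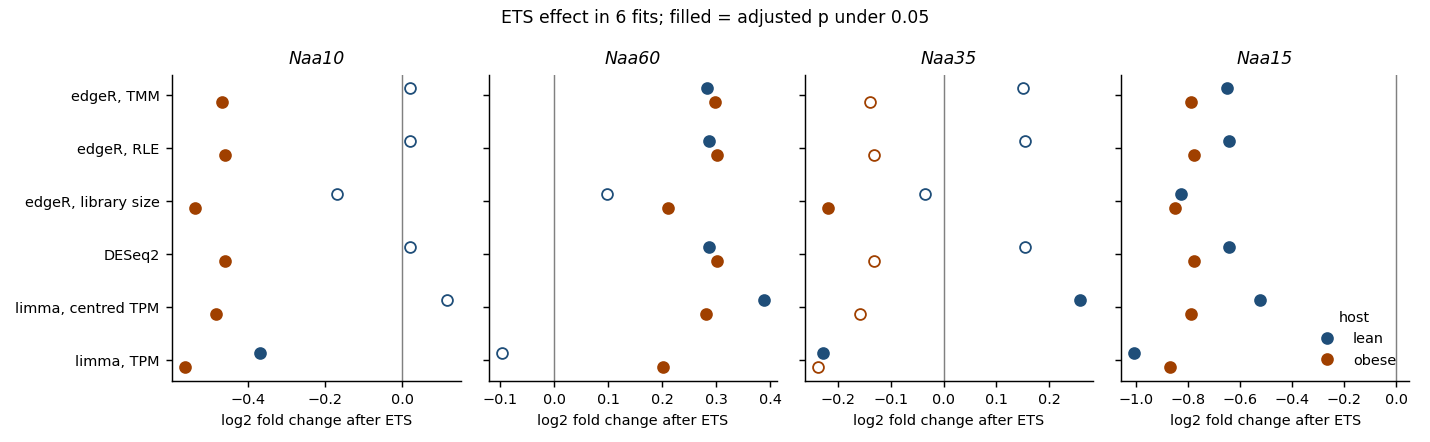
Log2 fold change after ETS (x axis) of Naa10, Naa60, Naa35 and Naa15 in lean (blue) and obese (brown) tumors under 6 combinations of test and scaling (y axis), with filled points for adjusted p under 0.05. The lean values of Naa10, Naa60 and Naa35 lie on either side of 0 depending on the combination (Naa10 from -0.37 to 0.12), whereas both values of Naa15 lie below 0 in all 6.

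The hosts were also compared at each stage, and these comparisons share their tumors with the ones above. Before therapy, 1 subunit was called, where 26.4% of all genes were, and the groups of 2 subunits, Naa10 and Naa35, did not overlap, where 30.4% of all genes did not. Naa10 was higher in obese tumors (51.7 CPM ± 1.36 against 42.1 ± 4.12, SD, n = 4 each), with no overlap, a log2 fold change of 0.29, an SE of 0.095 and an adjusted p of 0.0315 in edgeR. This call was lost without replicates 2, 3 or 4 of the lean tumors (adjusted p = 0.0563, 0.10 and 0.0677), without replicates 1, 3 or 4 of the obese tumors (adjusted p = 0.0516, 0.0675 and 0.0738), and with log2(TPM + 1) (0.16, adjusted p = 0.254). Naa16 had the largest difference, 0.56 (SE 0.26, adjusted p = 0.128). It was at 13.4 to 20.9 CPM in obese tumors before therapy and at 10.1 to 14.7 CPM in lean tumors, and it was called when only these 2 groups were fitted (0.54, adjusted p = 0.0399), with the replicate block (0.54, adjusted p = 0.0320) and with the centred TPM (0.68, adjusted p = 0.0168). The median over the 10 subunits was 0.15, against 0.019 over all genes. The scaling moved the share of higher calls among all genes here as well, from 51.0% to 29.0% with log2(TPM + 1) and 71.4% with the centred TPM, and on the log2(TPM + 1) scale the single call was Naa60, lower in obese tumors (-0.25, adjusted p = 0.0170).

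After ETS, none of the 10 subunits was called between hosts by edgeR, against 5.58% of all genes (58.7% of them higher in obese tumors, 83.8% with log2(TPM + 1) and 30.9% with the centred TPM), and none had an unadjusted p under 0.05. The 904 calls over all genes became 185 to 483 without any one of the 4 lean tumors after ETS, 243 without replicate 4 of the obese tumors after ETS, and 66 with only the groups compared. DESeq2, edgeR's exact test and limma on TPM also called 0 subunits. Naa10 had the smallest unadjusted p (0.0617, edgeR), at 35.4 to 39.3 CPM in obese and 37.2 to 50.6 CPM in lean tumors, and the groups of all 10 subunits overlapped, where 13.2% of all genes did not. The median over the subunits was -0.0067, against 0.0016 over all genes.

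Subunits of a complex were compared as log2 ratios of TPM within a tumor, which do not depend on the scaling between tumors. The 5 ratios in the 4 comparisons gave 20 exact two-sided permutation tests, in which the smallest p that 4 against 4 tumors allow is 0.0286. A ratio could pass after adjustment over the 20 tests only if most of them reached this smallest p. None passed, and 2 had an unadjusted p under 0.05, both in lean tumors after ETS. The ratio of Naa15 to Naa10 was at 0.486, 0.557, 0.669 and 0.523 in lean tumors before therapy and at 0.355, 0.232, 0.444 and 0.411 after ETS, a log2 difference of -0.66 (p = 0.0286, adjusted p = 0.163, exact permutation). The ratio of Naa35 to Naa30 was at 2.25, 2.46, 2.24 and 2.19 before and at 3.45, 4.0, 3.16 and 2.77 after, a log2 difference of 0.54 (p = 0.0286, adjusted p = 0.163, exact permutation). In both cases the groups did not overlap in lean tumors. In obese tumors the same differences were -0.32 and 0.15, with exact permutation p of 0.0571 and 0.314 before adjustment, and the groups overlapped. The differences of these effects between hosts, given below, did not pass (exact permutation adjusted p = 0.336 and 0.150).

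Within NatA, Naa16 made up 11.8% ± 1.69 of the summed TPM of Naa15 and Naa16 in lean tumors before therapy (SD, n = 4), 10.5% ± 1.72 after ETS, 15.9% ± 2.06 in obese tumors before therapy and 12.2% ± 3.93 after ETS. Before therapy the log2 ratio of Naa16 to Naa15 in obese tumors exceeded that in lean tumors by 0.50 (exact permutation p = 0.0571, adjusted p = 0.163). The ratio of Naa50 to Naa15 was near 2 in both hosts before therapy (2.09 in lean and 2.06 in obese tumors, geometric means) and at 2.46 and 2.47 after ETS, differences of 0.24 and 0.26 on the log2 scale (exact permutation p = 0.143 and 0.0857, adjusted p = 0.317 and 0.214). For Naa25 to Naa20 the log2 difference after ETS was -0.42 in lean and 0.090 in obese tumors (exact permutation p = 0.0571 and 0.571). When the host labels were permuted within each stage (4900 arrangements), the difference of these effects was -0.51 (exact p = 0.0347), which did not pass after adjustment over the 5 ratios (adjusted p = 0.15).

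**Figure D5:**
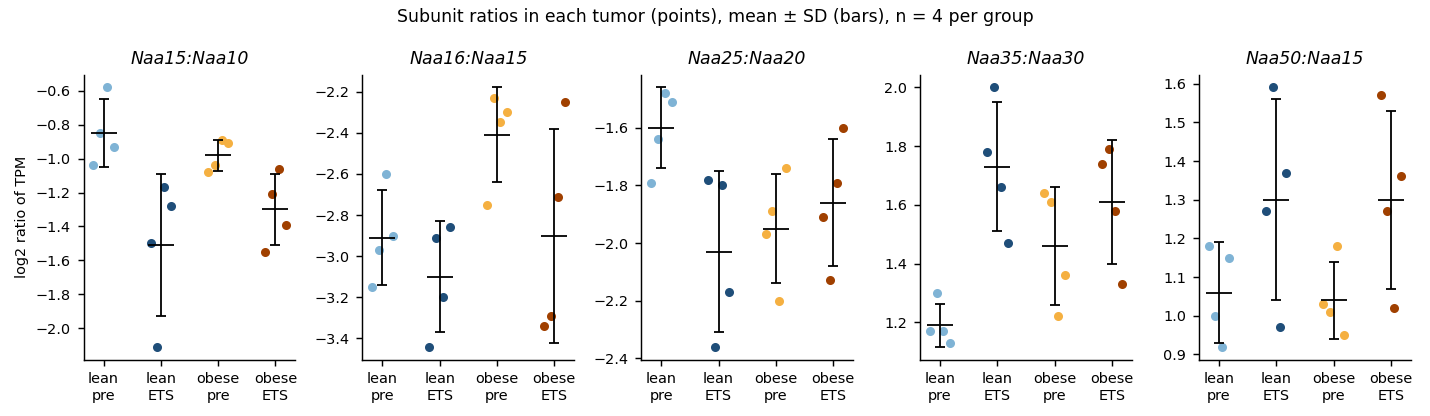
Log2 ratio of TPM (y axis) for 5 pairs of NAT subunits in each tumor (points) by group, with the mean and SD of 4 tumors (bars). The lean tumors after ETS lie below the lean tumors before therapy for Naa15:Naa10 and above them for Naa35:Naa30 with no overlap, and no ratio passed after adjustment over the 20 tests.

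Correlations between subunits are given as a description, since subunits that fell together after ETS must correlate over tumors of both stages. Over the 16 tumors, which fall into 4 groups and share their libraries and scaling, Pearson's r of log2 CPM was 0.88 between Naa15 and Naa16, 0.89 between Naa15 and Naa50, and 0.85 between Naa15 and Naa30. After the group means were removed these values were 0.60, 0.26 and 0.56, and that of Naa15 with Naa20 was 0.03. Naa60 ran against Naa16 (r = -0.92, and -0.79 after the group means were removed). Naa10 and Naa15, which form one complex, had r = 0.52 over all tumors and -0.26 after the group means were removed. Among 13305 other genes with a mean of at least 1 CPM, the genes most like Naa15 were Smc3 (r = 0.992) and Smc2 (r = 0.990), which encode subunits of cohesin and condensin, and Pds5a (r = 0.988), a cohesin regulator. Those most like Naa16 were Chuk (r = 0.988), Rbm39 (r = 0.973) and Mbtd1 (r = 0.972), and those most like Naa10 were Psmd5 (r = 0.937), Smu1 (r = 0.930) and Tmem237 (r = 0.916). Of 6 proliferation markers, 6 fell after ETS in each host (summed level 1240 to 1576 CPM, then 558 to 738 in lean tumors, and 1221 to 1430, then 472 to 687 in obese tumors), and their part in the fall of the NAT subunits was not tested.

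Other genes of N-terminal processing were taken from 6 lists with 32 genes, of which 29 were tested. In lean tumors 13 were called (7 higher and 6 lower, median log2 fold change 0.015), and in obese tumors 10 were called (4 higher and 6 lower, median -0.14), where 43.8% and 40.2% of all genes were called. For 4 of the 29 the response differed between hosts, against 16.4% of all genes. The log2 fold change was higher in lean than in obese tumors for 3 of them, Naa38, Metap2 and Slc25a1. It was lower in lean tumors for 1, Ubr4 (-0.74, SE 0.20, edgeR adjusted p = 0.0218). Of the further NAT genes, Naa11, the testis-type paralog of Naa10, had a count of 0 in all 16 tumors, which allows at most 0.0636 CPM (3 counts in the shallowest library, counting error only), and Naa12 was not analysed here. Naa38, the small auxiliary subunit of NatC, was at 20.5 CPM ± 1.67 in lean tumors before therapy and rose to 27.9 ± 3.54 after ETS (log2 fold change 0.44, SE 0.12, edgeR adjusted p = 0.00803). In obese tumors it was at 22.3 CPM ± 2.13 before and 19.0 ± 2.86 after (-0.23, SE 0.12, adjusted p = 0.146), although a fall was called with library size only (-0.31, adjusted p = 0.0200) and with log2(TPM + 1) (-0.32, adjusted p = 0.00415). The difference between hosts passed the test (0.67, SE 0.17, adjusted p = 0.0139). This difference was kept in all alternatives that give it, between 0.39 and 0.79 with adjusted p of at most 0.0324, whereas the rise in lean tumors was 0.064 with log2(TPM + 1). Naa80, which acetylates actin, rose in obese tumors (0.44, SE 0.15, adjusted p = 0.0338), and the call was lost without replicates 1 or 2 before therapy or replicate 4 after ETS (adjusted p up to 0.113), and with library size only, no filter, either TPM pseudocount and only the groups compared (up to 0.172). In lean tumors, where the groups did not overlap, it was at 0.35 (SE 0.15, adjusted p = 0.0791). It was called there with the replicate block (0.36, adjusted p = 0.0296), with only the groups compared (0.34, adjusted p = 0.0127), with the centred TPM (0.46, adjusted p = 0.0116) and without replicate 4 of the obese tumors after ETS (0.32, adjusted p = 0.0241), but was at -0.027 with log2(TPM + 1). Hypk, a NatA-binding protein, was at 0.015 and -0.13 (adjusted p = 0.900 and 0.257), and the lean value turned to -0.35 with log2(TPM + 1) (adjusted p = 0.0269).

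Before NatA can act, methionine aminopeptidases remove the first methionine. Metap1 fell in both hosts, by 0.37 in lean (SE 0.080, edgeR adjusted p = 0.00226) and by 0.33 in obese tumors (SE 0.080, adjusted p = 0.00496). Metap2 fell in obese tumors by 0.38 (SE 0.084, adjusted p = 0.00300), and its response differed between hosts by 0.53 (SE 0.12, adjusted p = 0.00669). Before therapy Metap2 was already higher in obese tumors (213 CPM ± 5.78 against 166 ± 9.87, 0.36, edgeR adjusted p = 0.00538). After ETS it was at 164 ± 21.3 in obese and 185 ± 6.63 in lean tumors (-0.17, edgeR adjusted p = 0.225). The N-myristoyltransferase Nmt2 fell by 1.07 in lean and by 0.66 in obese tumors (SE 0.18 each, adjusted p = 0.000334 and 0.00863), and the N-terminal methyltransferase Ntmt1 rose in lean tumors (0.40, SE 0.11, adjusted p = 0.0116). Of 11 N-degron enzymes, which read or prepare N-termini for degradation, 5 were called in lean tumors (2 higher, 3 lower) and 2 in obese tumors (both higher), against the 43.8% and 40.2% of all genes. The ubiquitin ligase Ubr1 fell by 0.58 in lean tumors (SE 0.13, adjusted p = 0.00312) and Ntan1, an N-terminal asparagine amidase, rose (0.43, SE 0.11, adjusted p = 0.00690). Zer1, a ligase subunit that reads N-terminal glycine, rose in both hosts, by 0.43 in lean (SE 0.12, adjusted p = 0.0115) and by 0.52 in obese tumors (SE 0.12, adjusted p = 0.00444). Ubr4 rose in obese tumors (0.47, SE 0.14, adjusted p = 0.0176, and up to 0.0619 without replicate 3 before therapy or replicate 1 after ETS). With log2(TPM + 1) the rises of Ntmt1, Ntan1 and Zer1 in lean tumors were 0.027, 0.068 and 0.048 and did not pass, nor did Zer1 and Ubr4 in obese tumors (0.39 and 0.38), nor the difference between hosts for Metap2 (0.27). With library size only, Ntmt1 and Zer1 in lean tumors (adjusted p = 0.0933 and 0.106) and Ubr4 in obese tumors (0.0567) did not pass.

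Of 5 genes of acetyl-CoA supply and transport, 2 were called in lean tumors (both higher) and 2 in obese tumors (both lower), against the 43.8% and 40.2% of all genes. In each host 2 of the 5 had positive and 3 had negative log2 fold changes. ATP citrate lyase (Acly) was called in neither host. It was at -0.37 in lean tumors, where the groups did not overlap, and at -0.34 in obese tumors (SE 0.17 each, edgeR adjusted p = 0.0877 and 0.126). The response differed between hosts for Slc25a1 (0.69, SE 0.20, edgeR adjusted p = 0.0263) but did not pass for Slc33a1, Acss1 and Acss2 (adjusted p = 0.652, 0.638 and 0.278). The difference for Slc25a1 was lost without replicates 3 or 4 of the lean tumors before therapy, replicate 2 of the lean tumors after ETS or replicate 1 of the obese tumors before therapy (adjusted p up to 0.0553), and with log2(TPM + 1) (0.39, adjusted p = 0.122). In lean tumors Slc25a1, the mitochondrial citrate carrier, rose by 0.72 on the log2 scale (SE 0.14, edgeR adjusted p = 0.00104), and so did Slc33a1, the acetyl-CoA transporter of the endoplasmic reticulum (0.30, SE 0.11, adjusted p = 0.0343). Slc25a1 was already higher in obese than in lean tumors before therapy, with no overlap (0.53, SE 0.14, edgeR adjusted p = 0.0118). Its change after ETS in obese tumors was 0.025 (edgeR adjusted p = 0.910). The treated tumors of the hosts overlapped, and their difference, obese minus lean, did not pass (-0.16, edgeR adjusted p = 0.490). Slc33a1 turned to -0.082 with log2(TPM + 1), and its call was lost without replicates 1, 2 or 3 before therapy or replicate 1 after ETS of the lean tumors, or replicate 1 of the treated obese tumors (adjusted p up to 0.171), and with library size only, where it was 0.11 (adjusted p = 0.397), no filter (0.0590) and only the groups compared (0.0703). In obese tumors the acetyl-CoA synthetases Acss1 and Acss2 fell by 0.58 (SE 0.19, adjusted p = 0.0244) and by 0.40 (SE 0.14, adjusted p = 0.0309). The call of Acss1 was lost without replicates 1 or 4 before therapy or replicate 2 after ETS (adjusted p up to 0.0615), and that of Acss2 without these or replicate 1 after ETS (up to 0.128). Both were lost with only the groups compared (0.0683 and 0.0886), and Acss2 with no filter (0.0539). In lean tumors Acss1 and Acss2 were at -0.37 and -0.072 (adjusted p = 0.124 and 0.693). Before therapy Acss2 was already higher in obese tumors (25.3 CPM ± 3.99 against 17.3 ± 1.23, 0.55, edgeR adjusted p = 0.00831). After ETS it was at 19.2 ± 3.64 in obese and 16.4 ± 1.29 in lean tumors (0.22, edgeR adjusted p = 0.333). Casp2 mRNA fell in both hosts, from 72.9 CPM ± 6.85 to 46.5 ± 7.58 in lean tumors (log2 fold change -0.65, SE 0.12, adjusted p = 0.000523) and from 59.6 ± 3.96 to 37.3 ± 4.39 in obese tumors (-0.68, SE 0.12, adjusted p = 0.000492). Pidd1, a p53 target whose product activates caspase-2 together with Cradd, rose in both (0.84 and 1.13, SE 0.17 each, adjusted p = 0.00109 and 0.000179), and the lean rise was 0.49 with log2(TPM + 0.1) (adjusted p = 0.0509).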

How the data were processed

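RNA of 16 B16F10 tumors, 4 per group, was analysed, and the group of each tumor came from its label. According to the submitters' processing notes and the methods, the authors trimmed reads with Trimmomatic, aligned them to mm10 with HISAT2 2.1.0 and quantified genes with StringTie 2.1.3b. The counts they deposited are whole and not normalized, and were tested as they stand. The deposited TPM values come from the same step and served for levels, ratios and alternatives. FPKM values, which the authors deposited in 16 further columns, entered no result. The libraries were made with a stranded mRNA kit, and whether the counting used strand is not given in the sources used here.

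As in the study, a gene was kept when every tumor had a count above 0, which left 16209 of 45777 genes and removed 29568. edgeR 4.0.16 in R 4.3.3 fitted a mean for each group over all 16 tumors (TMM scaling, quasi-likelihood test), and p-values were adjusted after Benjamini and Hochberg across the whole table. The standard error is the size of the log2 fold change divided by the root of F. The steps were tested on simulated data. Alternatives were other scalings, no filter and filterByExpr, DESeq2 1.42.0, edgeR's exact test on counts with 1 added, limma 3.58.1 on log2 of TPM with 1 or 0.1 added and on centred values, only the groups compared, a replicate block, and each tumor left out. The labels do not say that the tumors came from separate mice, and p-values measure the spread between these samples. Within groups, all pairs of tumors differed by more than sampling noise.

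The NAT subunits and gene lists were chosen with earlier results of these data known. All 10 subunits were named in every comparison, together with Naa11, Naa12, Naa38, Naa80, Hypk and Casp2, the 2 called genes of each related list with the smallest adjusted p in each host, and the 3 genes most like Naa10, Naa15 and Naa16. The values given for Zer1, Acss1 and Acss2 in lean tumors and for the host differences of acetyl-CoA genes were added after their values were seen. Those for Acly, for the host difference of Ubr4 and for the levels of Acss2 and Metap2 in each host were added likewise. So were the comparisons of Slc25a1 between hosts at each stage and its change in obese tumors. Coordinates come from the GRCm38.p6 gene table, in which all 10 matched by gene ID. Exon overlaps come from GENCODE annotation of the same build, matched by symbol.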

Additional observations from a re-analysis of the deposited data

Results flagged for a closer look

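The response of Naa10 to ETS differed between hosts by a test of the difference itself, with the log2 fold change in lean tumors higher than that in obese tumors by 0.49 (edgeR adjusted p = 0.0219). The levels of the 4 tumors before and the 4 after ETS overlapped in lean tumors and did not overlap in obese tumors. The difference was 0.19 on the log2(TPM + 1) scale (adjusted p = 0.383, limma).

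Of 60 groups of 4 tumors checked, over 10 subunits and 5 ratios, 1 held a tumor far from the other three. Naa60 was at 54.3 CPM in replicate 3 of the lean tumors after ETS, against 61.9, 61.2 and 61.5 CPM. By chance about 1 in 20 groups would hold such a tumor.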

How the results depend on the processing

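The number of subunits called after ETS was 5 to 9 in lean and 5 to 9 in obese tumors over the alternatives that kept all tumors of the groups, with the lowest value in obese tumors (5) when only the groups compared were fitted. With a tumor left out it was 4 to 6 in lean and 4 to 8 in obese tumors, lowest in obese tumors without replicate 1 after ETS and in lean tumors without replicate 3 before therapy or replicate 1 after ETS. The count of differences between hosts in the ETS effect was 0 with library size only and with either TPM pseudocount, 2 with the centred TPM, and it could not be given by the exact test. Before therapy the count was 3 with the centred TPM, 2 with only the groups compared, and 0 to 1 with a tumor left out. After ETS it was 0 in all alternatives. The causes were not tested.

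Several values changed sign, among them the rise of Naa60 in lean tumors that the main fit called (0.28, edgeR adjusted p = 0.0320). In lean tumors after ETS, Naa10 was at -0.17 and Naa35 at -0.036 with library size only. With TPM pseudocounts of 1 and 0.1, Naa10 was at -0.37 (limma adjusted p = 0.00523 and 0.00545), Naa35 at -0.23 (0.0470 and 0.0501) and Naa60 at -0.10 (0.254 and 0.274). With the centred TPM, Naa20 was at 0.032 and Naa40 at 0.13. Hypk was at -0.17 with library size only and at -0.35 and -0.36 with TPM pseudocounts of 1 and 0.1, where Naa80 was at -0.027 and Slc33a1 at -0.082 and -0.085. Naa40 was at 0.0013 with RLE and DESeq2 and at 0.011 with filterByExpr. For the difference between hosts, Naa15 was at -0.14 and Naa50 at -0.17 with either TPM pseudocount, and Naa30 was at 0.061, Naa40 at 0.029 and Naa60 at 0.11 with the centred TPM. Naa60 was at 0.017 with filterByExpr. Before therapy, Naa40 was at -0.065 and -0.067 with TPM pseudocounts of 1 and 0.1. After ETS the values with these pseudocounts were 0.0099 and 0.0098 for Naa20, 0.11 and 0.12 for Naa30 (0.044 with library size only), 0.0063 and 0.0065 for Naa35, and 0.047 and 0.048 for Naa60. With the centred TPM, Naa15 was at -0.023, Naa25 at -0.026 and Naa50 at -0.016 after ETS. With a tumor left out, the ranges that crossed 0 were -0.081 to 0.079 (Naa10 in lean tumors), -0.047 to 0.040 (Naa40 in lean tumors), -0.046 to 0.074 (Hypk in lean tumors), -0.10 to 0.059 (Naa60, difference between hosts), and after ETS -0.081 to 0.14 (Naa15), -0.033 to 0.10 (Naa25) and -0.11 to 0.022 (Naa30). For ratios they were -0.071 to 0.019 (Naa50:Naa15 before therapy), -0.11 to 0.10 (Naa50:Naa15 after ETS) and -0.011 to 0.35 (Naa16:Naa15 after ETS).

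Tumors of the groups share replicate numbers, and the labels give these no other meaning. Deviations of same-numbered tumors correlated at 0.03 to 0.45 in the lean ETS comparison (3 of 4 pairs over 0.1, 1 of 4 best with its own number), at -0.03 to 0.20 in the obese one (2 of 4 and 3 of 4), and at -0.05 to 0.35 in those between hosts (1 of 4 and 1 of 4 in each). As not every pair was over 0.1 in any comparison, the numbers were not taken to pair the tumors. What they stand for was not tested. Over all genes, the block raised the calls after ETS from 7099 to 7754 in lean and from 6517 to 7151 in obese tumors. Those for the difference between hosts went from 2660 to 3087. Between hosts they went from 4280 to 4801 before therapy and from 904 to 1683 after ETS. With the replicate block, 6 subunits were called in lean and 8 in obese tumors, 1 for the difference between hosts, 2 before therapy (Naa10 and Naa16) and 0 after ETS. Paired ratios cannot pass, since the smallest p of 4 pairs is 0.125.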
